A study of Mus musculus with 74 samples.

Results

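Lines 3205 and 264 are derivatives of RAW264.7, a macrophage-like mouse tumour cell line, and were compared directly with each other after 120 min of lipopolysaccharide (LPS), the bacterial cell wall component sensed by Toll-like receptor 4. The comparison took in every gene with a mean of at least 1 normalized read over the 12 libraries tabulated with the 120 min samples, which was 17450 of 24851 genes. Line 3205 had 2 libraries at 120 min, line 264 had 2, and parental RAW264.7 had 2. The same 3 lines without LPS, 2 libraries each, made up the rest of those 12, and libraries at 60 min stood in a second table. The series text describes wild-type RAW264.7 cells, hypomorphic cells and CRISPR-made knockouts of both H3f3a and H3f3b. Neither the labels nor the series text ties a description to line 3205 or to line 264, or says whether a line is 1 clone. No LPS dose is stated for the lines, and their libraries carry a bone marrow derived macrophage tissue label beside a RAW264.7 source. RNA was sequenced, and a normalized read is 1 read divided by the size factor of its library.

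H3.3 is the histone H3 variant that is placed into chromatin outside DNA replication, mostly at active genes and enhancers. The proteins made from H3f3a and H3f3b are identical. A serine in its tail that the replication-coupled H3 proteins lack is phosphorylated when macrophages are stimulated, and the study concerns that mark in the response to LPS.

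Depth ran from 26.5 M to 51.0 M reads per library over the 12, with 17149 to 18950 genes detected. The line 3205 libraries at 120 min were the deeper pair, with 51.0 M and 50.2 M reads, against 36 M and 29.5 M in line 264. The cell type label was checked on marker genes. Of 10 macrophage markers, 9 stood at 1512 normalized reads or more in all 6 libraries at 120 min, among them Csf1r, Cd68, Spi1 and Emr1, the gene of F4/80. The tenth, Mertk, was nearly without reads in line 264 and RAW264.7. Markers of B cells summed to 57.4 and 30.6 normalized reads in line 3205, against 5.89 and 14.7 in line 264, and those of fibroblasts to 34.2 and 13.9, against 9.82 and 19.6. Cd79b made up most of the B cell sum in line 3205, and Cd22 was at or above it in line 264, while 8 of the 11 B cell markers in the table fell below the level filter, Pax5 and Ms4a1 included. Mast cell and basophil markers summed to 123 and 86.8 in line 3205, against 1455 and 647 in line 264, nearly all of it Hdc, the histidine decarboxylase gene that LPS-stimulated macrophages also express. Dendritic cell markers summed to 103 and 53.5 in line 3205, against 182 and 138 in line 264, and T and NK cell markers to 280.0 and 159 against 242 and 157, mostly Lck. Cd8a, Dcn, Pdgfra, Dpp4 and Tpsab1 had 0 reads in all 6 libraries. The part of other cell types in the differences was not tested, and in bulk RNA fewer cells of a kind and less RNA per cell cannot be told apart.

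H3f3a (chr1:180802560-180813605, mm10) yielded 53.5 and 37.5 normalized reads in line 3205, against 182 and 212 in line 264, and RAW264.7 had 3109 and 2438. Every library of line 3205 lay below every library of line 264, and both lines lay far below RAW264.7. The limma log2 difference of line 3205 from line 264 was -2.10 ± 0.26 (SE, n = 2 each), with an adjusted p of 0.000952. H3f3b, the partner gene on chromosome 11, had 11416 and 13284 normalized reads in line 3205, against 17764 and 15991 in line 264, and 34155 and 33056 in RAW264.7. The lines did not overlap, but the log2 difference of -0.45 (95% interval -0.78 to -0.12) had an adjusted p of 0.101, and 0.034 with the replicate number as a block. Counting over whole genes does not show whether an edited transcript is functional. Of 12 genes for H3.3 and its chaperones, H3f3a was the only call, which made 8.33% lower, against 4.22% of all genes. With the replicate number as a block 3 of the 12 were lower, where 9.66% of all genes were.

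At 120 min, 834 genes were higher in line 3205 than in line 264 (4.78% of those tested) and 736 were lower (4.22%), by limma with Benjamini-Hochberg adjusted p below 0.05. Together they made up 9% of genes. Their median log2 differences were 1.84 and -1.15, and 591 of the higher and 412 of the lower genes differed at least 2-fold. In all 1570 of these genes the replicate ranges of the lines did not overlap, as was the case for 45.6% of all genes tested. Same-numbered replicates deviated together, and with that number as a block 1715 genes were higher (9.83%) and 1685 lower (9.66%), 19.5% in all. With 1 library left out, between 377 and 507 genes were higher and between 324 and 401 lower. The lowest count of higher genes came without line 3205 replicate 1 and the lowest of lower genes without line 264 replicate 1. Nothing in the labels says that the 2 libraries of a line came from separate cultures, so the p-values cover the spread among these libraries alone, and that spread may be technical.

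**Figure D1:**
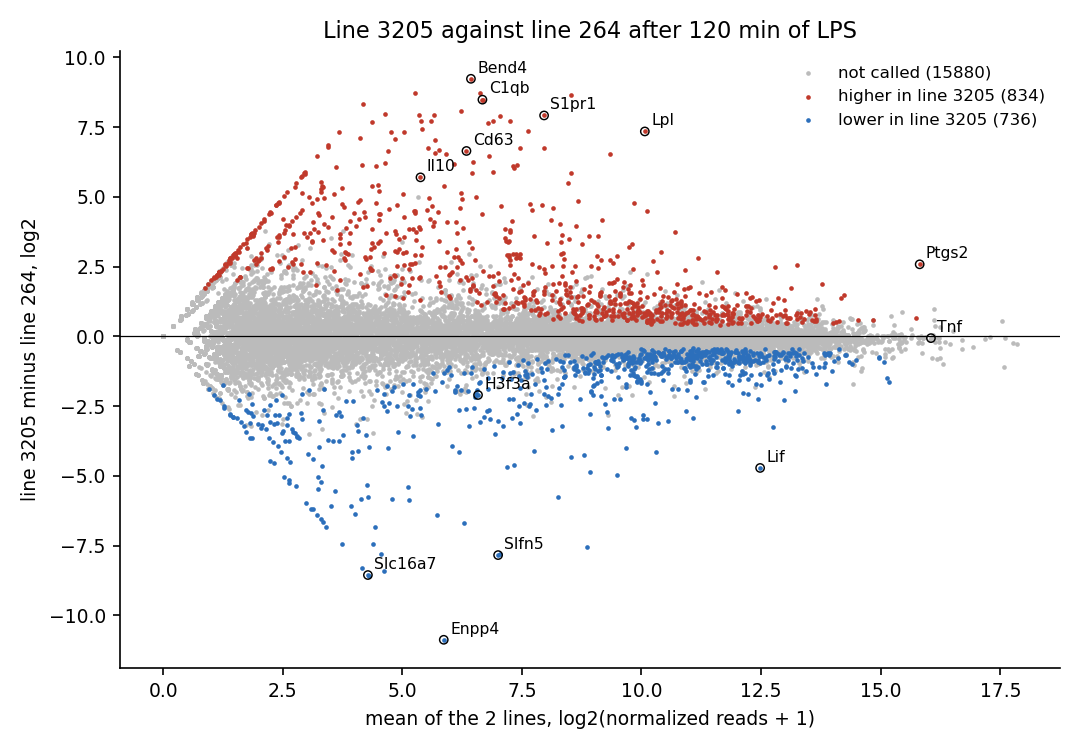
Difference between line 3205 and line 264 after 120 min of LPS (y axis, log2) against the mean level of the 2 lines (x axis, log2 of normalized reads plus 1), 1 point per gene. The 834 genes called higher in line 3205 are red and the 736 called lower are blue, and named genes are ringed. The largest differences belong to genes that are nearly silent in 1 of the lines, along the slanted edges.

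The largest differences were of an on and off kind. Bend4 (chromosome 5), which encodes a BEN domain protein, had 1716 and 1656 normalized reads in line 3205, against 6.87 and 0 in line 264, and RAW264.7 had 1380 and 1321. Line 3205 lay near RAW264.7 there, and line 264 was far below both. Its log2 difference was 9.23 ± 0.70, with an adjusted p of 3.85e-05. Maoa, a monoamine oxidase gene, had 2050 and 2024 normalized reads in line 3205, against 7.86 and 7.34 in line 264, a log2 difference of 7.89 ± 0.35. Basp1, which encodes a membrane-associated growth cone protein, had 8914 and 5798 in line 3205, against 21.6 and 13.5 in line 264. In RAW264.7 both were high too, with 1634 and 1683 for Maoa and 4679 and 3262 for Basp1. A further 4 of the 15 largest rises, Camk2d, Kctd17, Zfhx4 and B4galt6, likewise were high in line 3205 and RAW264.7 and nearly silent in line 264.

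A different pattern was seen where line 3205 alone held the transcript. Hspb8, a small heat shock protein gene, had 1827 and 2047 normalized reads in line 3205, against 1.96 and 6.11 in line 264, and none in RAW264.7. Rhox2g, a reproductive homeobox gene of the X chromosome, had 785 and 687 in line 3205, against 1.96 and 0 in line 264 and none in RAW264.7. S1pr1, a receptor for sphingosine 1-phosphate, had 3463 and 3803 in line 3205, against 7.86 and 24.5 in line 264, with 10.7 and 11.4 in RAW264.7. Tie1, a receptor tyrosine kinase known from endothelium, had 1036 and 440 in line 3205, against 1.96 and 2.45 in line 264. The adjusted p of these 4 genes lay between 3.4e-06 and 3.36e-05.

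Timp2, an inhibitor of matrix metalloproteinases, had 446 and 311 normalized reads in line 3205, against 0 and 1.22 in line 264, a ratio of line 3205 to line 264 of 700.1 with a 95% counting interval of 125 to 27676. RAW264.7, with 63.9 and 50.5, was between the lines.

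In the other direction, Enpp4, an ectonucleotide hydrolase gene (chromosome 17), had 0.645 and 0 normalized reads in line 3205, against 3459 and 1688 in line 264, and 2383 and 1081 in RAW264.7. The reads were 1 in line 3205 and 4903 in line 264, a ratio of line 264 to line 3205 of 7984 with a 95% counting interval of 1432 to 315412. Slc16a7, the monocarboxylate transporter MCT2 (chromosome 10), had no read in line 3205, against 351 and 404 normalized reads in line 264, and was at least 373-fold lower in line 3205. Zic5, a zinc finger transcription factor gene, also had no read in line 3205, against 406 and 364 normalized reads in line 264, and was at least 386-fold lower. These limits set line 3205 to 3 reads over its 2 libraries, and like the intervals they cover counting error only. Lin28b, an RNA-binding inhibitor of let-7 maturation, was read only in line 264, at 304 and 323 normalized reads, with 0 in line 3205 and in RAW264.7, so line 3205 was at least 312-fold lower. Slfn5, an interferon-inducible Schlafen gene, had 9.03 and 4.86 in line 3205, against 3155 and 982 in line 264, and 6329 and 3873 in RAW264.7. Egr1, an immediate early transcription factor gene, had 36.8 and 27.8 in line 3205, against 8023 and 4858 in line 264, with a log2 difference of -7.57 ± 0.31 and an adjusted p of 1.22e-06. F3, the tissue factor gene, was the least even of these, with 1.94 and 0 in line 3205, against 359 and 106 in line 264. Its adjusted p of 0.0065 became 0.0573 without line 264 replicate 1 and 0.0501 without line 3205 replicate 2.

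Svopl, Cnksr3, Bdh1, Eid2, Optn, Cbx2, Btbd3 and Znf41-ps were the other genes among the largest falls. Optn, the autophagy receptor optineurin, had no read in line 3205, against 108 and 116 normalized reads in line 264, and was at least 111-fold lower. Cbx2, a Polycomb chromobox gene, also had none in line 3205, against 92.3 and 109 in line 264.

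Counted over all genes, 35 had at most 3 reads in line 264 while averaging 50 normalized reads or more in line 3205, and 23 had the reverse. The lower limit is in reads, so at 120 min it was looser for line 264, whose libraries were shallower. At 0 min it was looser for line 3205, with 34.1 M and 26.5 M reads against 33.3 M and 37.8 M in line 264. The counts of the lines are therefore not strictly comparable. Of the 35, 11 reached a mean of 50 in RAW264.7, 8 were below 1 there and 16 lay between. Of the 23 silent in line 3205, 13 reached 50 in RAW264.7, 3 were below 1 and 7 lay between. The state was already there without LPS for most of these genes, since 18 of the 35 and 19 of the 23 met the same limits at 0 min. At 0 min line 264 again had 3 reads or fewer for 23 of the 35, and line 3205 averaged 50 or more for 29. Of the 23 silent in line 3205, 20 again had 3 reads or fewer there, and 22 averaged 50 or more in line 264. More genes thus missed the lower limit than the upper one, such as Camk2d, with 7 reads in line 264 at 0 min. F3 missed the upper limit, with 9.10 and 0.855 normalized reads in line 264 without LPS.

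Cholesterol efflux and lipid handling was the list with the largest share of higher genes. The lists were chosen with earlier results of these data known. Their shares beside those of all genes, here and below, are therefore descriptions. Macrophages take up and store lipid, and liver X receptors drive its export. Of 22 tested genes 10 were higher in line 3205 and 1 was lower, with a median log2 difference of 0.91. The median of all genes was 0.00 and 4.78% were called higher, or 9.83% with the replicate block. With 1 library left out, 6 to 8 were higher, and with the block 15 were. Lpl, lipoprotein lipase, had 14045 and 13232 normalized reads in line 3205, against 95.2 and 72.1 in line 264, and 98859 and 64966 in RAW264.7. Its log2 difference was 7.34 ± 0.41, with an adjusted p of 5.85e-06, and line 3205 itself stood well below RAW264.7. Apoc2, the apolipoprotein that activates lipoprotein lipase, had 701 and 588 in line 3205, against 45.2 and 28.1 in line 264, and 22.6 and 18.9 in RAW264.7. Gpnmb, a transmembrane glycoprotein gene of lipid-loaded macrophages, had 17396 and 30711 in line 3205, against 4076 and 3831 in line 264. Plin2, which coats lipid droplets, had 6336 and 7025 in line 3205, against 3939 and 3434 in line 264, a log2 difference of 0.86 ± 0.14. The remaining higher genes were Abca1, Apoc1, Fabp4, Fabp5, Nr1h3 and Rxra, and the lower one was Ppard, a nuclear receptor gene with 2125 and 2054 in line 3205 against 4029 and 3436 in line 264.

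**Figure D2:**
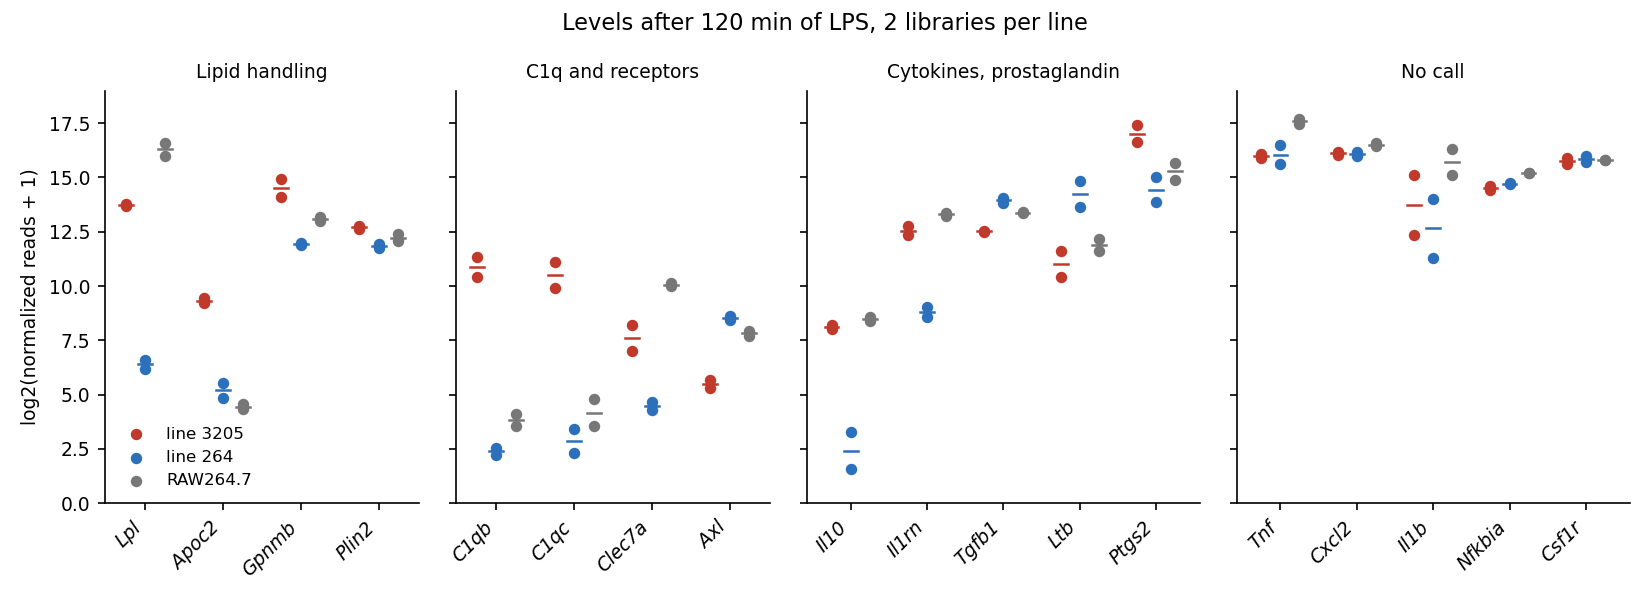
Levels of 18 genes after 120 min of LPS (y axis, log2 of normalized reads plus 1), 1 point per library with a bar at the mean of 2 libraries, for line 3205 (red), line 264 (blue) and RAW264.7 (grey). Lpl, the C1q genes and Il10 are far higher in line 3205 than in line 264, while Tnf, Cxcl2, Nfkbia and Csf1r overlap or nearly overlap between the lines.

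Phagocytic and scavenger receptor genes also held many calls, with 10 of 32 higher and 3 lower in line 3205 and a median log2 difference of 0.52. Those were 31.25% and 9.38% of the list, against 4.78% and 4.22% of all genes, or 9.83% and 9.66% with the block. C1q, the recognition subunit of the classical complement pathway, is made by tissue macrophages from 3 neighbouring genes on chromosome 4. C1qb had 1370 and 2576 normalized reads in line 3205, against 4.91 and 3.67 in line 264, and 10.7 and 16.4 in RAW264.7. C1qc had 971 and 2176 in line 3205, against 3.93 and 9.78 in line 264, and C1qa had 196 and 1028 against 0 and 3.67. All 3 were called higher, with adjusted p of 2.79e-05 for C1qb, 0.000614 for C1qc and 0.00224 for C1qa, and replicate 2 of line 3205 was the higher library each time. Clec7a, the beta-glucan receptor Dectin-1, had 297 and 128 in line 3205, against 18.7 and 24.5 in line 264, and RAW264.7 was above both with 1116 and 1026. The others called higher were Clec4a1, Clec4a2, Clec4a3, Colec12, Mrc1 and Stab1. The 3 C1q genes are neighbours, so the 10 higher genes are not all separate cases. The part of shared position in the share of this list was not tested. Axl, a receptor kinase for dying cells, ran the other way, with 49.7 and 38.2 in line 3205 against 388 and 344 in line 264, a log2 difference of -3.04 ± 0.32. Fcgr2b, the inhibitory Fc receptor gene, and Trem1 were lower too. With 1 library left out, 8 or 9 of these genes were higher and 1 or 2 lower, and with the block 14 and 6.

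The start regions of C1qb and C1qc are shown because these neighbours were both nearly silent in line 264 and high in line 3205, with LPS and without. Each runs from 250 bases before to 50 after the annotated start in RefSeq (GRCm38.p6, minus strand), C1qb at chr4:136886151-136886450 and C1qc at chr4:136892865-136893164, and is written 5′ to 3′ on the gene's strand. Capitals mark GAGGAA, the core of sites bound by PU.1 and its relatives, searched on both strands (TTCCTC on the other).
C1qb: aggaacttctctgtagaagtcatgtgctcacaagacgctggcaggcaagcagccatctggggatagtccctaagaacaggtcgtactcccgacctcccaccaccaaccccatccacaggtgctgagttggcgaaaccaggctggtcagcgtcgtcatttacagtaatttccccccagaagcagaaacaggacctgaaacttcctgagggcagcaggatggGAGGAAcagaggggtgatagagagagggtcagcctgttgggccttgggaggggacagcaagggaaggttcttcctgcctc
C1qc: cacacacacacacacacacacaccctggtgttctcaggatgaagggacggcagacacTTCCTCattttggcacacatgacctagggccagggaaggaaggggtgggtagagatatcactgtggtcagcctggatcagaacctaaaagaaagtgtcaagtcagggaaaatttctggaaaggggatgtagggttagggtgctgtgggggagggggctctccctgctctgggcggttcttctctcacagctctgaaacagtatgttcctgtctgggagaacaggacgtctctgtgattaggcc
GAGGAA or its complement occurs in both windows, and in 28.3% of the 27025 RefSeq start regions of the same length. Spi1, the gene of PU.1, had 17196 and 11970 in line 3205, against 12779 and 10883 in line 264, and was not called (log2 difference 0.28, 95% interval -0.15 to 0.71).

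Among macrophage identity genes 3 of 19 were higher, Aif1 and Mertk among them, and 1 was lower. With 1 library left out 1 to 3 were higher, and the call of Mertk was lost in 3 of the 4 leave-outs. Aif1, an actin-binding protein of activated macrophages, had 588 and 507 normalized reads in line 3205, against 112 and 84.4 in line 264. Fcer1g, the signalling chain of Fc receptors, was the lower one, with 7372 and 6780 in line 3205 against 17878 and 13372 in line 264, and its adjusted p of 0.00691 became 0.0611 without line 264 replicate 1. Of 14 osteoclast lineage genes, the fusion gene Dcstamp and Tnfrsf11a, the receptor for RANKL, were higher. Tnfrsf11a had 5198 and 3547 in line 3205, against 1799 and 1319 in line 264. For scale, 4.78% of all genes were higher and 4.22% lower, and 9.83% and 9.66% with the block. Lysosomal genes had 4 of 43 higher and 1 lower, and 15 higher and 3 lower with the block, while 2 to 4 were higher with 1 library left out. Cd63, a tetraspanin of late endosomes, led them with 838 and 782 in line 3205, against 6.87 and 7.34 in line 264, and 5212 and 4531 in RAW264.7. Tfeb, which drives lysosomal gene expression, was also higher, while Ppt1, a palmitoyl thioesterase gene, was lower with a log2 difference of -1.30 ± 0.16.

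**Figure D3:**
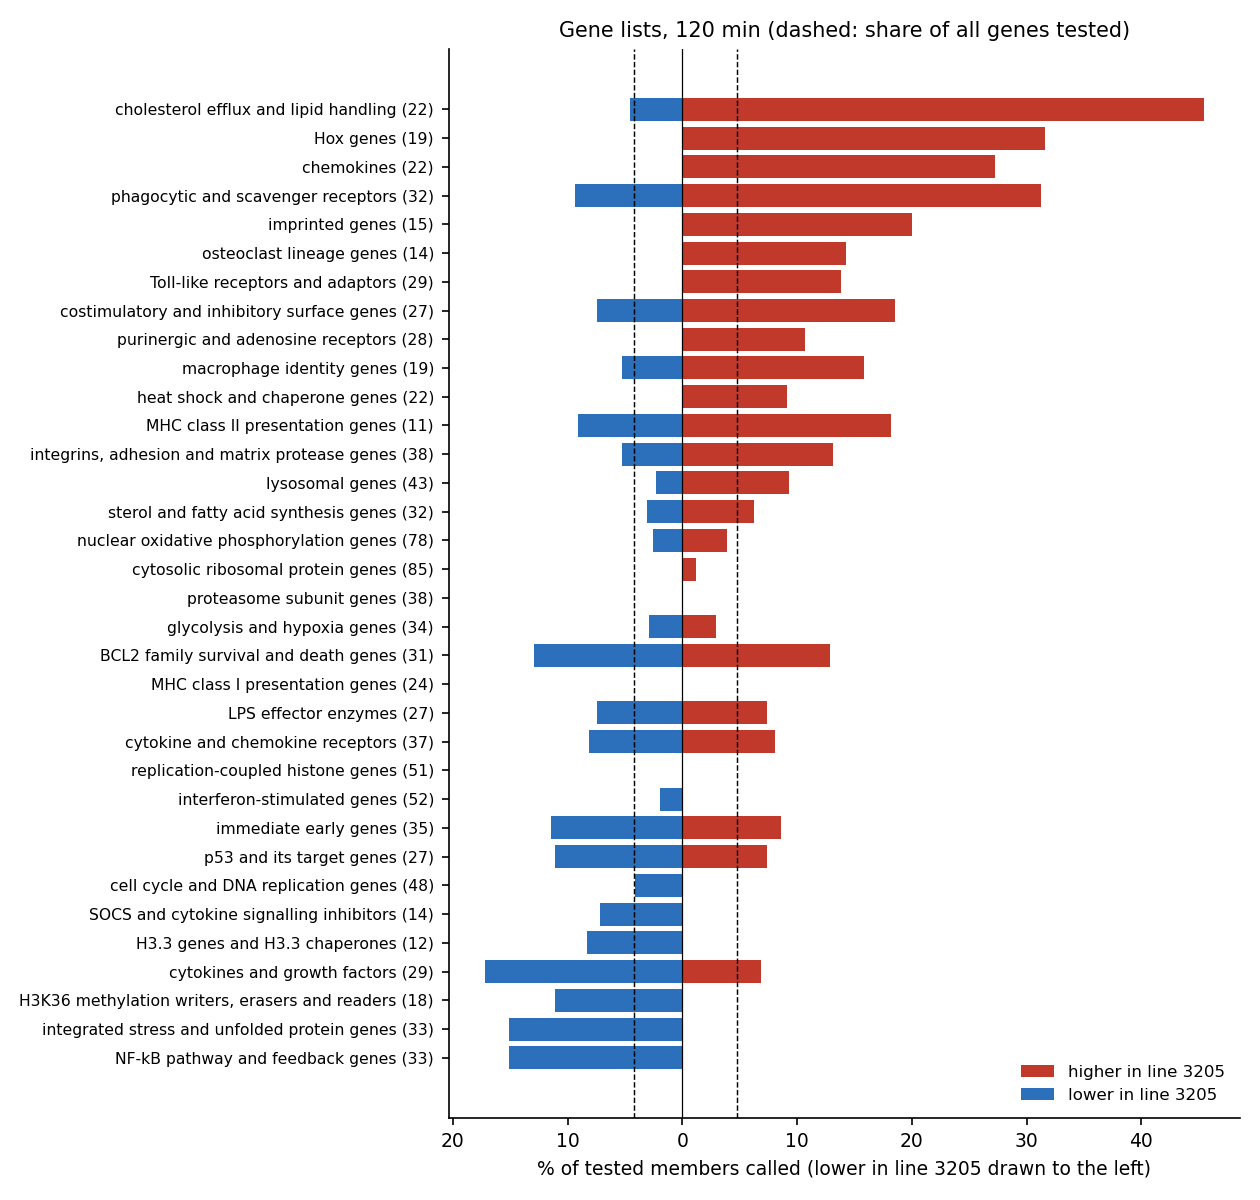
Share of tested members of each gene list called higher in line 3205 (red, to the right) or lower (blue, to the left) at 120 min, for the lists with at least 10 tested genes. Dashed lines mark the shares among all genes tested, 4.78% and 4.22%, and the number of tested members stands beside each name. Lipid handling, Hox, chemokine and phagocytic receptor genes extend farthest to the right, and NF-kB and stress response genes have calls to the left only. The lists were chosen with earlier results of these data known.

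Of 22 chemokine genes 6 were higher in line 3205 and none lower, against 4.78% higher among all genes. The block called 9.83% of all genes higher and 9.66% lower. Ccl6 had 352 and 387 normalized reads in line 3205, against 57.9 and 64.8 in line 264, with a log2 difference of 2.57 ± 0.27. Ccl9, the most abundant of the 6, had 35040 and 19306 in line 3205, against 8002 and 6380 in line 264, and RAW264.7 had 66255 and 43400. Cxcl14 had 723 and 1787 in line 3205, against 1.96 and 4.89 in line 264. The others were Ccl7, Ccl24 and Pf4. The best known LPS-induced members were not among them: Cxcl2 had 68025 and 73408 in line 3205, against 74500 and 63856 in line 264, and Cxcl10 had 40765 and 24680 against 94541 and 17785. Leave-outs of 1 library had 4 or 5 chemokine genes higher and 0 or 1 lower, and with the block 6 and 2.

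Cytokine and growth factor genes moved in both directions, with 2 of 29 higher (6.90%) and 5 lower (17.2%), against 4.78% and 4.22% of all genes. Under the block the shares of all genes were 9.83% and 9.66%. Leaving out 1 library gave 2 or 3 higher and 3 to 6 lower, and the block 3 and 7. Il10, the anti-inflammatory cytokine, had 257 and 294 normalized reads in line 3205, against 1.96 and 8.56 in line 264, and 374 and 340 in RAW264.7. The log2 difference was 5.70 ± 0.55, with an adjusted p of 0.000199. Il1rn, the gene of the interleukin 1 receptor antagonist, had 6910 and 5217 in line 3205, against 379 and 520 in line 264, and 9591 and 10682 in RAW264.7. For both genes line 3205 lay close to RAW264.7 and line 264 far below. Tgfb1 was lower, with 5766 and 5941 in line 3205, against 17038 and 14668 in line 264, a log2 difference of -1.43 ± 0.13. Ltb, lymphotoxin beta, had 3089 and 1356 in line 3205, against 29489 and 12798 in line 264, and only 4536 and 3166 in RAW264.7. The other lower genes were Csf1, Csf2 and Lif. Lif had 2707 and 254 in line 3205, which differed widely from each other, against 24386 and 19668 in line 264.

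The best known early products of LPS stimulation gave no call. Tnf had 68394 and 61581 normalized reads in line 3205, against 91324 and 50509 in line 264, and its log2 difference of -0.07 had a 95% interval of -0.97 to 0.84. Il1b had 35885 and 5180 in line 3205, against 16696 and 2466 in line 264, so that replicate 1 was far above replicate 2 in each line. Its interval ran from -1.85 to 4.03, which leaves large differences undetected. The same held for Nos2, inducible nitric oxide synthase, with 6823 and 2253 in line 3205 against 2208 and 459 in line 264. Nos2 had an adjusted p of 0.566, and 0.033 with the block. Il6 had 31 and 9.03 in line 3205, against 156 and 31.8 in line 264, and 1831 and 737 in RAW264.7, with an interval of -3.85 to -0.15 and an adjusted p of 0.202. Tnfaip3, the feedback inhibitor A20, was bounded more closely, with an interval of -0.45 to 0.44, and Nfkbia with one of -0.50 to 0.10. Ptgs2, which encodes the prostaglandin synthase COX-2, did differ, with 175621 and 100507 in line 3205, against 33388 and 14773 in line 264, and 52445 and 29976 in RAW264.7. Its log2 difference was 2.58 ± 0.41, with an adjusted p of 0.00387. Of 27 LPS effector enzyme genes, Ptgs2 and Arg2 were higher and Hdc and Marcksl1 lower. That was 7.41% each way, against 4.78% and 4.22% of all genes, or 9.83% and 9.66% of all genes with the block. The call of Arg2 was lost whichever library was left out (adjusted p from 0.0776 to 0.208). Among 52 interferon-stimulated genes, Slfn5 was the only call, but 4 were lower without line 264 replicate 2, and the block called 1 higher and 4 lower. The median of this list, -0.26, ran from -1.14 without line 264 replicate 2 to 0.51 without line 264 replicate 1, so it had no stable direction.

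Of 29 Toll-like receptor and adaptor genes, 4 were higher and none lower, though the median log2 difference was -0.16. With the block 5 were higher and 6 lower, and with 1 library left out 2 to 4 were higher and 0 or 1 lower. Tlr4, the LPS receptor gene itself, had 3605 and 3237 normalized reads in line 3205, against 989 and 1138 in line 264, and 1524 and 1942 in RAW264.7. The log2 difference was 1.69 ± 0.14, with an adjusted p of 7.85e-05. Tlr8 was nearly silent in line 264, with 22.6 and 68.7 in line 3205 against 0 and 1.22. Ly86, which encodes the MD-1 partner of RP105, and Tab1, an adaptor of the kinase TAK1, made up the rest. Of the 4 higher genes, 1 lies on chromosome 15, whose genes were higher in line 3205 in general. Among all genes 4.78% were higher and 4.22% lower, and 9.83% and 9.66% with the block. The call of Ly86 was lost in 3 of 4 leave-outs, with an adjusted p of up to 0.122, and that of Tab1 without line 264 replicate 2 or line 3205 replicate 1, with one of up to 0.0589. NF-kB pathway and feedback genes had 5 of 33 lower and none higher, with a median log2 difference of -0.28, and 12 lower and 1 higher with the block. Nfkb2 had 8272 and 6126 in line 3205, against 19763 and 14102 in line 264. Chuk, the kinase IKK-alpha, had 3720 and 3730 in line 3205, against 6270 and 6389 in line 264, a log2 difference of -0.76 ± 0.11. Chuk, Nfkb2 and Rela lie on chromosome 19, whose genes were lower in line 3205 in general. The adjusted p of Rela, 0.00664, became 0.0598 without line 264 replicate 2 and 0.0526 without line 3205 replicate 1. The other lower ones were Nfkb1 and Icam1, and the adjusted p of Icam1, 0.0142, became 0.0993 without line 264 replicate 1 and 0.0984 without line 3205 replicate 2. In each leave-out 3 genes of this list were lower.

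Of 35 immediate early genes 3 were higher and 4 lower, against 2 higher and 2 or 3 lower with 1 library left out. Plk2, a polo-like kinase gene, had 1624 and 3522 normalized reads in line 3205, against 9.82 and 18.3 in line 264, and 5675 and 7606 in RAW264.7. Dusp1, the phosphatase that ends p38 signalling, had 3629 and 2948 in line 3205, against 1037 and 763 in line 264, and 13141 and 12179 in RAW264.7. Myc was the third. The shares over all genes were 4.78% higher and 4.22% lower, and 9.83% and 9.66% with the block. Egr1, Ier2, Junb and Nr4a3 were lower, and Ier2 had 2266 and 2221 in line 3205, against 4607 and 5384 in line 264. Its adjusted p of 0.00633 became 0.0549 without line 264 replicate 2. Integrated stress and unfolded protein genes had 5 of 33 lower and none higher, with a median log2 difference of -0.66, and 15 lower and 1 higher with the block. Trib3, a pseudokinase induced by amino acid stress, had 134 and 165 in line 3205, against 548 and 701 in line 264. Sel1l, of the degradation complex of the endoplasmic reticulum, had 4982 and 5526 in line 3205, against 9067 and 9416 in line 264, and the others were Psat1, Sdf2l1 and Xbp1. With 1 library left out, 2 to 5 of these genes were lower.

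The list of BCL2 family survival and death genes had 4 of 31 higher and 4 lower. These were 12.9% each, against 4.78% and 4.22% of all genes. Bcl2l11, the pro-apoptotic BIM, had 17038 and 16147 normalized reads in line 3205, against 2362 and 3765 in line 264, and 10258 and 9383 in RAW264.7. Pro-survival Bcl2l1 went the other way, with 5390 and 3386 in line 3205, against 15067 and 11693 in line 264. Pmaip1, which encodes the pro-apoptotic NOXA and is a p53 target, had 3134 and 2563 in line 3205, against 640 and 506 in line 264. Mlkl, the effector of necroptosis, had 875 and 717 against 290 and 208. All 4 had adjusted p of at most 0.00187. Pro-apoptotic Bbc3, the gene of PUMA, was lower too, with a log2 difference of -1.72 ± 0.42. Its call was lost in 3 of the 4 leave-outs. The remaining calls were Casp1, which was higher, and Bcl2a1b and Bcl2a1d, which were lower. The calls of this list changed when 1 library was left out. With the block 5 of its genes were higher and 8 lower, against 9.83% and 9.66% of all genes. Ptger4, a prostaglandin E2 receptor gene, had 650 and 261 in line 3205, against 32.4 and 11 in line 264. Itgav, the integrin subunit of vitronectin receptors, had 8316 and 4198 in line 3205, against 1779 and 1701 in line 264. Ifi30, a lysosomal thiol reductase used in MHC class II presentation, had 2368 and 2100 in line 3205, against 6097 and 5649 in line 264, and 12784 and 10844 in RAW264.7. Cenpf, a kinetochore gene, was 1 of 2 lower genes among 48 of cell cycle and DNA replication, with 2328 and 3440 in line 3205 against 6639 and 6752 in line 264. The other was Cdkn1a, an inhibitor of cell cycle kinases, whose call was lost whichever library was left out, with adjusted p from 0.0608 to 0.212.

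Hox genes differed in 1 direction. Of 19 tested Hox genes, which pattern the body axis and are active in blood progenitors, 6 were higher in line 3205 and none lower, with a median log2 difference of 0.86. Over all genes 4.78% were higher and 4.22% lower. Hoxa7 had 290 and 282 normalized reads in line 3205, against 0.982 and 0 in line 264, and 51.9 and 34.1 in RAW264.7. Hoxa4 had 45.8 and 61.1 in line 3205, against 2.95 and 2.45 in line 264. The remaining 4 were Hoxa2, Hoxa5, Hoxb7 and Hoxb9, and with 1 library left out 3 or 4 Hox genes were higher. Hoxb9 kept its call in every leave-out but lost it by edgeR and by DESeq2, both without the block. The call of Hoxa5 was lost in 3 of the 4 leave-outs. Among 15 imprinted genes 3 were higher. Igf2r, the receptor that clears insulin-like growth factor 2, had 5606 and 5804 in line 3205, against 32.4 and 115 in line 264, and 14086 and 9985 in RAW264.7. Airn, the noncoding RNA that overlaps Igf2r in antisense, had 26.5 and 38.2 in line 3205 and no read in line 264. No source used here says whether counting used strand, so reads of the overlapping pair cannot be told apart. The third was Igf2, with 8 reads in line 3205 and none in line 264, whose call was lost whichever library was left out (adjusted p from 0.0932 to 0.214) and by edgeR.

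Other immune lists gave scattered calls. Beside them stand 4.78% higher and 4.22% lower among all genes, and 9.83% and 9.66% with the block. Costimulatory and inhibitory surface genes had 5 of 27 higher and 2 lower, with 2 or 3 higher and 0 or 1 lower when 1 library was left out, and 9 and 4 with the block. Cd86, a ligand of CD28, had 867 and 283 normalized reads in line 3205, against 38.3 and 29.3 in line 264. Its adjusted p of 0.00663 became 0.0578 without line 3205 replicate 1. Cytokine and chemokine receptor genes had 3 of 37 higher and 3 lower, with 1 to 4 and 1 or 2 when 1 library was left out, and 8 and 5 with the block. Csf2ra, of the GM-CSF receptor, had 1141 and 1290 in line 3205, against 451 and 225 in line 264, and Il18rap, of the interleukin 18 receptor, had 8019 and 7624 against 14068 and 14742. Cish, a STAT5-induced inhibitor of cytokine signalling and the only call among 14 such genes, had 258 and 40.3 in line 3205, against 4314 and 2488 in line 264. Its call was lost without line 264 replicate 1 or line 3205 replicate 2. Purinergic and other small-ligand receptor genes had 3 of 28 higher, S1pr1, Ptger4 and Adora2a, and none lower, and the block called 5 and 2. Integrin, adhesion and matrix protease genes had 5 of 38 higher and 2 lower, against 4 higher and 0 or 1 lower with 1 library left out and 8 and 7 with the block. MHC class II presentation genes had 2 of 11 higher and 1 lower, against 1 and 1 with 1 library left out and 4 and 2 with the block. Genes of p53 and its targets had 2 of 27 higher and 3 lower, against 2 higher and 1 or 2 lower with 1 library left out and 4 and 4 with the block.

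Lists of basic cell functions held few calls. None of 38 proteasome subunit genes, 51 replication-coupled histone genes or 24 MHC class I presentation genes was called by limma without the block. The block called 2, 2 and 4 of them, and 19.5% of all genes. Of 85 cytosolic ribosomal protein genes, only Rpl8 was called, higher in line 3205, and it lies on chromosome 15. That call was lost whichever library was left out (adjusted p from 0.0563 to 0.128). Nuclear oxidative phosphorylation genes had 3 of 78 higher, all 3 on chromosome 15, and 2 lower, both on chromosome 19, shares of 3.85% and 2.56% against 4.78% and 4.22% of all genes. Leave-outs had 0 to 2 higher and 1 lower, and Cox8a kept its call each time. Cox8a, a cytochrome c oxidase subunit gene of chromosome 19, had 6406 and 4953 normalized reads in line 3205, against 12695 and 11673 in line 264, and 8550 and 8825 in RAW264.7. Of 18 genes that write, erase or read H3K36 methylation, Phf1 and Kdm2a were lower, the second of them on chromosome 19, and without line 264 replicate 2 or line 3205 replicate 1 both calls were lost (adjusted p from 0.0593 to 0.0675). The call of Phf1 was lost without either of the others as well. Setd2, which trimethylates H3K36, had 3203 and 3958 in line 3205, against 3630 and 3635 in line 264 (log2 difference -0.03, 95% interval -0.31 to 0.25).

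Whole chromosomes differed between the lines. Among genes averaging 50 normalized reads or more, the 429 of chromosome 15 had a median log2 difference of 0.57, and 90.9% of them were higher in line 3205. The 403 of chromosome 19 had a median of -0.59, and 90.3% were lower. The other 18 chromosomes with enough genes had medians between -0.03 and 0.06. Of 597 tested genes of chromosome 15, 157 were called higher and 6 lower, and of 545 of chromosome 19, 7 were called higher and 144 lower. These 2 chromosomes held 35.4% of the 567 calls below 2-fold and 11.3% of the 1003 calls of at least 2-fold, and without them 670 genes were higher and 586 lower. Of the higher list members, chromosome 15 held 1 of 3 immediate early genes, 1 of 2 osteoclast lineage genes and 1 of 3 small-ligand receptor genes. It also held 1 of 3 cytokine and chemokine receptor genes and 2 of 5 integrin, adhesion and matrix protease genes. Chromosome 19 held 1 of 5 lower stress genes and 1 of 2 lower costimulatory and inhibitory surface genes. Along chromosome 15, all 41 overlapping windows of 20 neighbouring genes had a median above 0 (0.30 to 0.79), and along chromosome 19 all 39 were below 0 (-0.79 to -0.20). Set against RAW264.7, chromosome 15 was raised in line 3205 (medians of 0.54 and 0.52 in its 2 libraries, against -0.01 and 0.03 in line 264), and chromosome 19 was raised in line 264 (0.50 and 0.52, with -0.12 and -0.05 in line 3205).

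Chromosome 1 behaved in 2 stretches. Up to 170174964 its 520 genes had medians over RAW264.7 of 0.48 and 0.49 in line 3205 and of 0.45 and 0.39 in line 264, and the lines differed by a median of 0.05. From 170193422 to its last gene, 120 genes had medians of -0.01 and -0.07 in line 3205, against 0.48 and 0.39 in line 264. Here the median difference between the lines was -0.38, 98 of the 120 genes were lower in line 3205, and 35 were called lower and 2 higher. This stretch holds H3f3a, whose own difference of -2.10 was larger than the stretch's median. The boundary was set at a window after the values were seen, and the comparison is given as a description. Stretches of chromosome 6 were picked for high window medians at 120 min, so their 120 min medians were in part set by that choice. Genes from 42667999 to 54597344, where the Hoxa cluster lies, had a median difference of 0.34 over 40 genes. Those from 122577792 to 125231860 had one of 0.54 over 40 genes. The same stretches had medians of 0.34 and 0.45 without LPS. DNA copy number was not measured in these samples, and its part in these shifts was not tested.

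**Figure D4:**
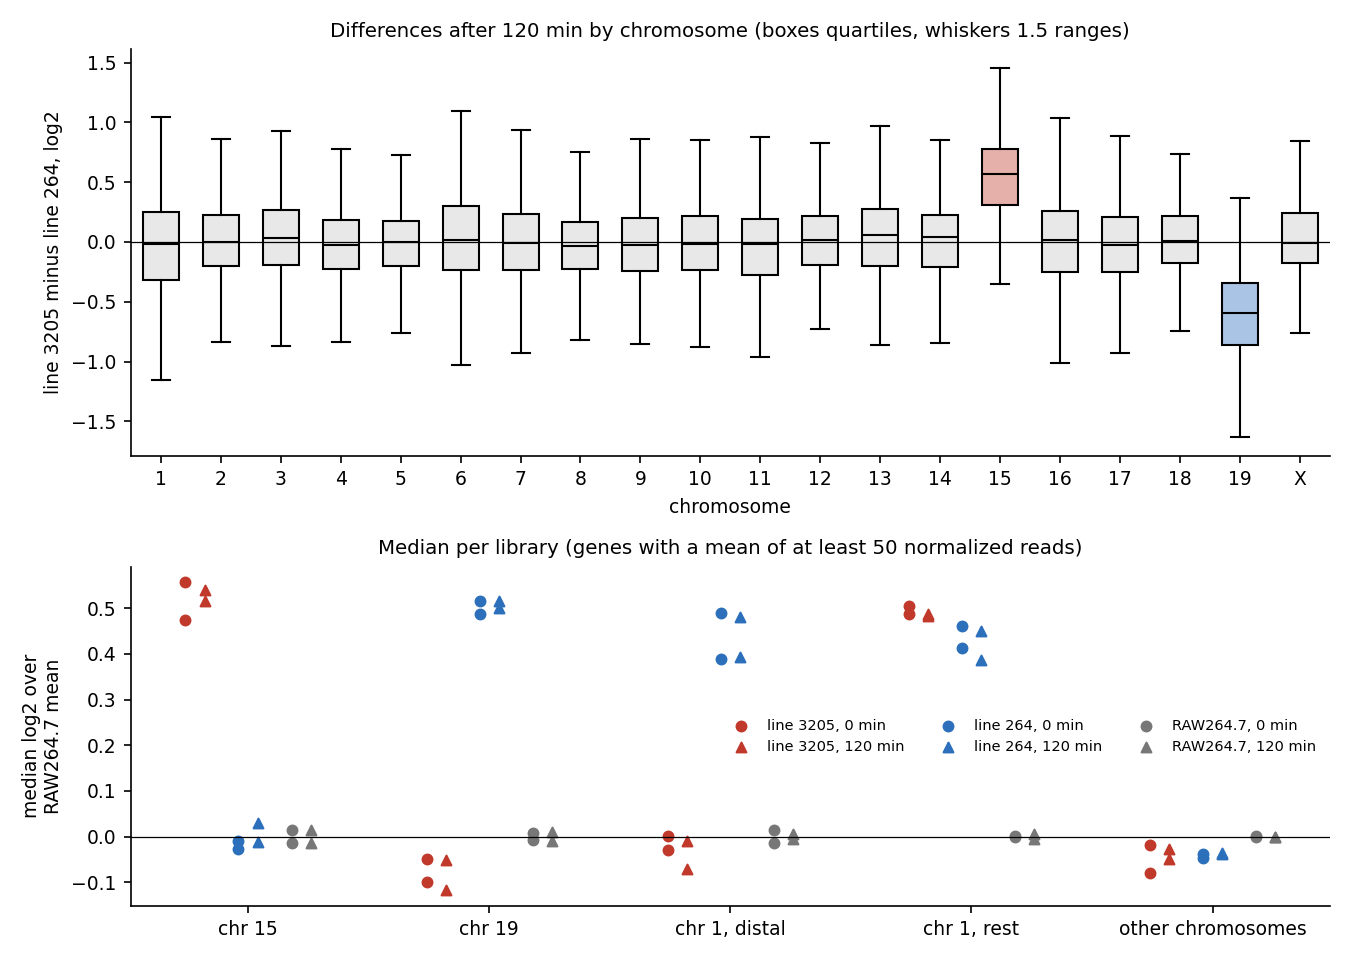
Top, log2 difference between line 3205 and line 264 at 120 min for genes averaging 50 normalized reads or more, by chromosome (boxes span the quartiles, the line is the median, whiskers reach 1.5 interquartile ranges, points beyond are not drawn). Bottom, median log2 level over the RAW264.7 mean of the same time for each library of line 3205 (red), line 264 (blue) and RAW264.7 (grey), at 0 min (circles) and 120 min (triangles). Chromosome 15 lies well above 0 in line 3205 and near 0 in line 264, chromosome 19 and the distal part of chromosome 1 lie well above 0 in line 264 and at or below 0 in line 3205, and the rest of chromosome 1 lies well above 0 in both lines.

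Most of what separated the lines at 120 min was already present without LPS. At 0 min 1437 genes were called (8.23%), 788 higher in line 3205 (4.52%) and 649 lower (3.72%). With the replicate block these were 1642 (9.41%) and 1574 (9.02%), or 18.4% together. The levels at 0 min come from other libraries than those at 120 min, but both contrasts share the spread estimated over all 12, so the call sets are not independent. Of the 1570 genes called at 120 min, 1558 had the same sign at 0 min (99.2%, against 78.3% of all genes), and 1150 were called at both times with the same sign, which was 73.2% of the 120 min calls and 80.0% of the 0 min calls. C1qb had 1162 and 2407 normalized reads in line 3205 without LPS, against 0 and 0 in line 264. Slc16a7 had none in line 3205 without LPS, against 434 and 351 in line 264. At 60 min 1757 genes were called (10.2%), 943 higher (5.45%) and 814 lower (4.7%), with 3532 (20.4%) under the block, of which 1832 were higher (10.6%) and 1700 lower (9.83%). Of the calls at 120 min, 1288 were called there with the same sign, 82.0% of them and 73.4% of the 60 min calls among genes tested in both tables. The chromosome shifts were as large without LPS, with medians of 0.57 on chromosome 15 and -0.57 on chromosome 19.

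**Figure D5:**
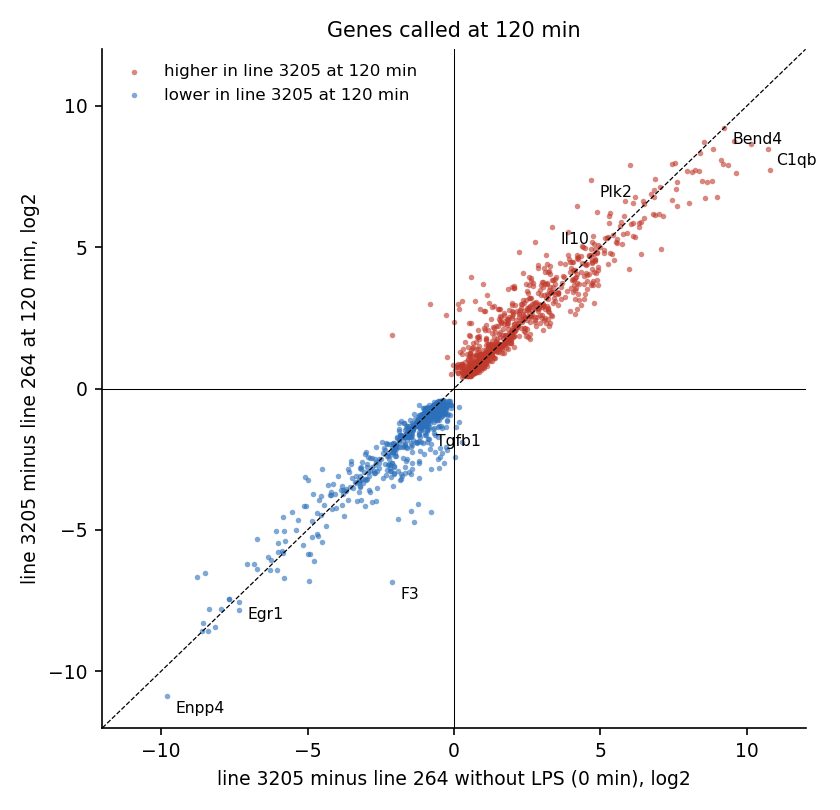
Difference between line 3205 and line 264 (log2) without LPS (x axis) and at 120 min (y axis) for the 1570 genes called at 120 min, higher in line 3205 in red and lower in blue. The dashed line marks equal differences, and 1558 of the genes have the same sign at both times.

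Whether the difference between the lines itself changed with LPS was tested as an interaction, the 120 min difference minus the 0 min difference. No gene was called by limma with or without the block, none by edgeR and 1 by DESeq2. Without the block, 282 genes (1.62%) had an unadjusted limma p below 0.05, a smaller share than p-values of no effect would give. The limma test was thus conservative here, and the lack of calls does not show that the differences stayed the same. The median SE of this contrast was 0.45 on the log2 scale, against 0.32 for the difference at 120 min. The DESeq2 call was Jag1, a Notch ligand, chosen here for that call. It had 561 and 513 normalized reads in line 3205, against 71.7 and 281 in line 264, at 120 min, and 47.9 and 66.9 in line 3205, against 225 and 272 in line 264, without LPS. Both libraries of line 3205 with LPS lay above those without it, while the ranges of line 264 overlapped. The limma interaction was 4.01 ± 0.72 with an adjusted p of 1. Without line 264 replicate 2 limma called it as well, with an interaction of 4.99 and an adjusted p of 0.0158. Tnf differed between the lines without LPS, with 333 and 747 in line 3205 against 1614 and 2711 in line 264, and had overlapping values at 120 min. The interaction of Tnf, 2.0 ± 0.57, was not called, nor was that of Tgfb1, at -0.54 ± 0.19.

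The genes called between the lines were also set against the parental cells. Their choice for a difference between the lines favours a RAW264.7 mean that lies between those of the lines. It also favours a call of at least 1 line against RAW264.7, so the counts are given as a description. Of the 834 genes higher in line 3205, the RAW264.7 mean lay between those of the lines for 484, above both for 160 and below both for 190. Of the 736 lower genes it lay between for 416, above both for 129 and below both for 191. Against RAW264.7, in comparisons that share the RAW264.7 libraries, line 3205 alone was called for 330 of the higher genes, line 264 alone for 243, both for 109 and neither for 152. For the lower genes these numbers were 236, 246, 104 and 150. Over all genes tested, line 3205 was called against RAW264.7 for 13.9% and line 264 for 13.5%, each counted whether or not the other was.

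Genes that respond to LPS in RAW264.7 were read for the difference between the lines. The levels behind this class come from RAW264.7 alone, but its calls share the spread estimated over all 12 libraries with the calls between the lines. Genes of low spread are more readily called in both, so the share called in either direction is not set against that of other genes here. Of 886 genes that rose with LPS there, 42 were higher in line 3205 (4.74%) and 106 lower (11.96%), and their median log2 difference was -0.16 at 120 min and -0.13 without LPS. Of 963 that fell with LPS, 79 were higher (8.20%) and 71 lower (7.37%), with a median of 0.05. The median interaction of the genes that rose was 0.00, their median LPS response being 0.84 in line 3205 and 0.88 in line 264 on the log2 scale, with 1.54 in RAW264.7, where they had been chosen.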

How the data were processed

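RNA of line 3205, line 264 and RAW264.7 was measured by RNA-seq at 0, 60 and 120 min of LPS, 2 libraries each. Total RNA was isolated with a column kit and made into TruSeq libraries, per the labels' protocols. Trim Galore 0.5.0, STAR 2.4.2, featureCounts of Subread 1.4.6, DESeq2, R 3.4.0 and mm10 are named in the submitters' processing notes. The values the authors deposited are a signal per gene, read counts divided by a size factor per library, since 100.0% of them came back as whole reads within 0.1 read. Because they were normalized, limma 3.58.1 (R 4.3.3) was fitted with an intensity trend to log2(value + 1), with 6 group means over the 12 libraries of a table, and p-values were adjusted by the Benjamini-Hochberg method over all genes with a mean of at least 1. Fold changes on that scale understate those of low genes. Between means of 1 and 1.1 lay 190 genes, of which 1 was called, and between 0.9 and 1 lay 211, which were left out. Calls needed an adjusted p below 0.05. The recovered reads were also tested with edgeR 4.0.16 and DESeq2 1.42.0, as alternatives.

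Named genes were up to 15 of the largest changes in each direction with a mean of at least 50, a fixed panel, and up to 4 called members of each list by smallest p. The members and lists were chosen with earlier results of these data known. Other members called are named without being singled out by size. Chromosomes came from the RefSeq table of GRCm38.p6, which held 16155 of the 17450 genes. Same-numbered replicates deviated together, with correlations of 0.39 to 0.76 (median 0.53) over 15 pairs of groups and 11287 genes, so a fit with the number as a block is given where it matters. The correlations come from the data and not from a label on pairing. On simulated counts for the 120 min comparison over 17104 genes, 95 of 100 genes changed 4-fold and 33 of 100 changed 2-fold were recovered, and 12 of 140 calls were false. These counts were drawn without a shared deviation of same-numbered replicates, and all changed genes had a mean of at least 50. The simulated figures therefore may not hold for the real libraries or for low genes. Some genes that met the rule for naming are not reported here.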

Additional observations from a re-analysis of the deposited data

How the results depend on the processing

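The count of genes higher and lower in line 3205 at 120 min, 834 and 736, was 1715 and 1685 with the replicate block, 1841 and 1592 by edgeR with the replicate block, and 328 and 250 from the compared libraries alone. The other tools and scalings stayed within 1.5 times, except that a minimum log2 difference of 1 left 412 lower genes. The counts at 0 min, 788 and 649, were 1642 and 1574 with the replicate block, 1577 and 1660 by edgeR with the block, and 294 and 173 from the compared libraries alone, and 362 genes were lower with the minimum difference. At 60 min, 943 and 814 became 1832 and 1700 with the replicate block, 1933 and 1903 by edgeR with the block, and 605 and 399 with the minimum difference. Leaving out 1 library gave 377 to 507 higher and 324 to 401 lower genes at 120 min, 416 to 593 and 313 to 484 at 0 min, and 420 to 539 and 378 to 391 at 60 min. The interaction had 0 higher and 0 lower genes in limma, 1 higher by DESeq2, 1 lower (Gm53) without the trend, and 0 to 1 higher and 0 lower with 1 library left out. The cause of these changes was not tested, except that fewer libraries leave a smaller fit.

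No gene called at 120 min changed sign under any alternative. Of 122 called named genes, 83 kept their call whichever of the 4 libraries was left out, 39 lost it without at least 1, and 12 lost it whichever was left out. In limma the block changed no other call among the named genes beyond H3f3b and Nos2. In edgeR the block brought in Il1b, Il6, Nos2 and Zmynd11 and lost Igf2. Without chromosomes 15 and 19, a choice made after seeing the data, 670 genes were higher and 586 lower. The medians of those chromosomes ranged from 0.54 to 0.60 and from -0.62 to -0.56 over 16 settings. With 2 libraries per line, 2-fold changes were often missed in the simulation.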
